A study of Rattus norvegicus with 8 samples.

Results

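The genes described are a set of 38 named genes of cell cycle and DNA replication, measured in hippocampus from male rats of the Sprague Dawley strain. Their probes were found by the gene name in the scanner files, and all 38 were on the array, out of 26214 genes it names. They comprise 21 genes that act mainly in mitosis, 12 that act in DNA replication, and 5 cyclins and regulators of the G1 phase. The animals lived in normoxia or were exposed to hypobaric hypoxia inside decompression chambers, at an air pressure equivalent to an altitude of 25000 ft and an effective oxygen concentration of 8%. Total RNA of the hippocampus was labelled with Cy3 and hybridised to Agilent arrays of 1 colour. Each of the 4 groups, which are normoxia and day 1, day 3 and day 7 of exposure, has 2 arrays. Sample titles of the last group read day 7 although the same samples carry an exposure of 5 days, and the name day 7 is used here. The age of the animals is not given in the sources used here. Whether the 2 arrays of a group stand for 2 animals is not said in any label, and p-values therefore measure the spread between these arrays alone, which may be technical. The comparisons ask how these genes differ between normoxia and each duration of exposure, and whether genes of mitosis differ from genes of replication.

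A dividing cell copies its DNA in S phase and separates the copies in mitosis. D-type and E-type cyclins carry a cell through G1 by releasing E2F transcription factors from the retinoblastoma protein, and E2F factors in turn drive the genes of DNA replication. Many genes of mitosis are held back until later in the cycle by a promoter element called the cell cycle genes homology region (CHR), which is bound by the DREAM and MuvB complexes and often lies near CCAAT boxes bound by NF-Y. In the adult hippocampus, dividing cells are few and include neural progenitors of the dentate gyrus, oligodendrocyte precursors, and endothelial and microglial cells. Some replication proteins, PCNA among them, also serve in DNA repair, and so are made in cells that do not divide.

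Levels are log2 processed signals minus the 75th percentile of the same array, so a value below 0 lies under that percentile, and a difference of 1 is a 2-fold difference. Between arrays of a group the levels of the members differed by a median of 0.06 to 0.10 log2, against 0.06 to 0.09 over all genes. To be tested, a gene had to stand well above background in at least 1 group, on both of its arrays. All 38 members passed, and each did so in normoxia itself, so no member entered only through exposure. Spots well above background made up 84.5% to 85.6% on the normoxia arrays, 80.6% to 82.1% on day 1, 75.7% on both day 3 arrays, and 72.6% to 77.0% on day 7. Normoxia and day 1 lay in row 1 of the slide and day 3 and day 7 in row 2. Row and exposure therefore cannot be told apart where day 3 or day 7 is compared with normoxia or day 1. Of 12 markers of hippocampal neurons, all 12 were tested. Against normoxia, 2 were called higher and 6 lower on day 1, with 8 and 1 on day 3, then 4 and 6 on day 7. The shares of all genes were 15.3% higher and 20.2% lower on day 1, and 24.2% and 26.2% on day 3. On day 7 they were 31.5% and 29.7%. The marker shares called higher on day 1 (16.7%) and on day 7 (33.3%) lay near those of all genes. The summed signal of the 12 markers, in multiples of the 75th percentile, came to 38.8 and 39.7 for normoxia, then 32.0 and 32.8 on day 1, 46.1 and 46.8 on day 3, with 43.1 and 44.9 on day 7. The day 1 arrays stood apart in other markers: 7 of 7 tested striatal markers were called higher than in normoxia (summed signal 28.4 on both arrays against 3.49 and 3.58), and 8 of 8 choroid plexus markers lower (1.90 and 1.96 against 121 and 131). On day 7, choroid plexus markers were also lower, at up to 10.8, while on day 3 they stood at 162 and 174. The part of this tissue content in the values below was not tested.

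Most of the mitotic genes rose with exposure, from day 3 on, while replication genes were divided between rises and falls. On day 3, 13 of 21 mitotic members were called higher than in normoxia and 3 lower (61.9% and 14.3%, beside 24.2% and 26.2% of all 21296 genes tested), by limma at a Benjamini-Hochberg adjusted p under 0.05 over all genes. On day 7, 13 were called higher and 1 lower (61.9% and 4.76%, beside 31.5% and 29.7% of all genes). Day 1 was different: 3 were called higher and 4 lower (14.3% and 19.0%), which is near the background of 15.3% and 20.2%. On days 1, 3 and 7 the median change of the 21 mitotic members was -0.08, 0.27 and 0.50, beside -0.07, -0.05 and -0.03 over all genes. Because whole tissue was measured, more dividing cells and more RNA per cell cannot be told apart, and the same holds for fewer cells and less RNA.

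Replication genes showed no such shared direction. Of 12 members, 4 were called higher and 4 lower on day 3, and again 4 and 4 on day 7, each 33.3%, which is close to the background on day 7. On day 1, 3 were called higher and 2 lower, beside 15.3% and 20.2% of all genes. The share called lower (16.7%) lay near the background. The median change of the 12 replication members was 0.22, -0.10 and 0.11 on days 1, 3 and 7. Among the 5 members of G1, 1 was called higher and 1 lower on day 1, with 2 and 1 on day 3, then 1 and 3 on day 7. On day 1, 1 of 5 in each direction is near the background of 15.3% and 20.2%. Over all 38 members, 19 were called higher and 8 lower (21.1%) on day 3, beside 24.2% and 26.2% of all genes. On day 7, 18 were called higher (47.4%) and 8 lower (21.1%), beside 31.5% and 29.7%. The moderated F-test across all 4 groups called 72.1% of all genes, so a difference somewhere in the series is common.

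**Figure D1:**
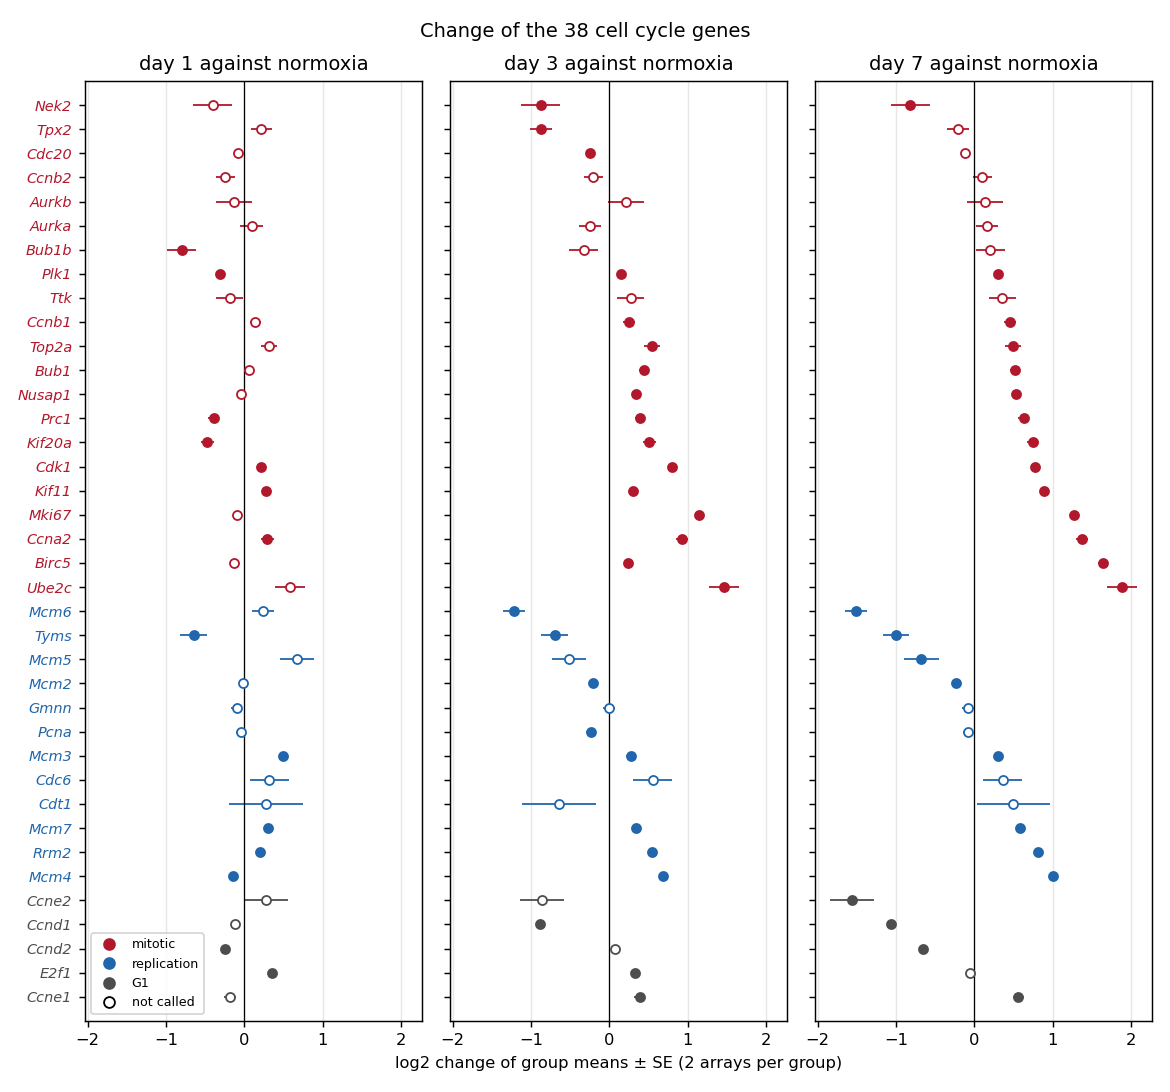
Log2 change of each of the 38 members against normoxia on day 1, day 3 and day 7 (horizontal axis), with the standard error from the limma fit as a bar and 2 arrays in each group; mitotic genes are red, replication genes blue and G1 genes grey, and open circles were not called. On day 7 most red points lie right of 0, up to 1.89 for Ube2c, while the blue points run from -1.51 for Mcm6 to 1.00 for Mcm4.

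The promoters of mitotic and replication members differ in the short motifs they hold, and 6 are shown because their genes carry the results that follow. They were taken from RefSeq on build GRCr8, whose promoter table spans 250 bases before to 50 after each gene's start and held 27 of the 38 members. Mcm4, Ccnd2, E2f1, Ccna2, Tpx2, Rrm2, Cdc6, Aurkb, Ube2c, Ccne2 and Ccnd1 had no entry. The motifs were searched on both strands: the CHR as TTTGAA or TTTAAA, the CCAAT box as CCAAT, and the E2F site as TTTCCCGC, TTTCGCGC, TTTGCCGC or TTTGGCGC; TTTAAA reads the same on both strands. A CHR match was found in 16 of 17 mitotic members (94.12%) and in 1 of 9 replication members (11.11%), against 28.25% of all 33469 promoters of the same length. An E2F match was found in 8 of 9 replication members (88.89%) and in 1 of 17 mitotic members (5.88%), against 2.14% of all promoters. The exceptions were Nek2 without a CHR match, Cdk1 with an E2F match, Mcm2 with a CHR match and Pcna without an E2F match. CCAAT boxes were found in both groups, in 14 of 17 and 6 of 9, against 37.49% of all promoters. A CHR match and a CCAAT box together were found in 13 of 17 mitotic members and 0 of 9 replication members, against 11.31%. In the stretches below, written 5′ to 3′ on the gene's strand, capitals mark every match in either direction, so that a CCAAT box on the other strand reads ATTGG. The first 3 belong to mitotic genes that rose and show CHR and CCAAT matches. The last 3, Mcm5, Mcm6 and Mcm7, belong to replication genes and show E2F and CCAAT matches. On day 7 Mcm6 was lower and Mcm7 higher. Mcm5 was called lower on day 7, a call kept under 6 of 21 alternatives.
Mki67: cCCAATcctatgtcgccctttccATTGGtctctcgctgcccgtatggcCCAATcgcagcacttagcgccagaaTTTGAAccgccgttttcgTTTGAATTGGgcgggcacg
Cdk1: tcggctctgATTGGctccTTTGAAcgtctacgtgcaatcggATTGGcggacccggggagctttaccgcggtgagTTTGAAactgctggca
Ccnb1: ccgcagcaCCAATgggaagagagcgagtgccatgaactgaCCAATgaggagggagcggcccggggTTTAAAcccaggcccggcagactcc
Mcm5: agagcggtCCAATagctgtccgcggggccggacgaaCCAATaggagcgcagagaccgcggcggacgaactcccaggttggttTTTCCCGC
Mcm6: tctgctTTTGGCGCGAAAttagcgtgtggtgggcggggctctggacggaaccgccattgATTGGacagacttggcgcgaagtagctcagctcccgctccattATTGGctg
Mcm7: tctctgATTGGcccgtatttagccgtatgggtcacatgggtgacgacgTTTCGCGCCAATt
These stretches lie on GRCr8 at chr1:199952674-199952783 (minus strand) for Mki67, chr20:19265203-19265292 (plus) for Cdk1, chr2:33655226-33655315 (minus) for Ccnb1, chr19:13488723-13488812 (plus) for Mcm5, chr13:42404388-42404497 (minus) for Mcm6 and chr12:22163218-22163278 (minus) for Mcm7. All lie before the annotated start, the nearest ending at base -1 and the farthest beginning at base -190. In Mki67 the second CHR match and a CCAAT box overlap, in Mcm7 the E2F match and a CCAAT box overlap, and in Mcm6 a pair of E2F matches on opposite strands overlap. A match is a description of letters and not a binding site.

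**Figure D2:**
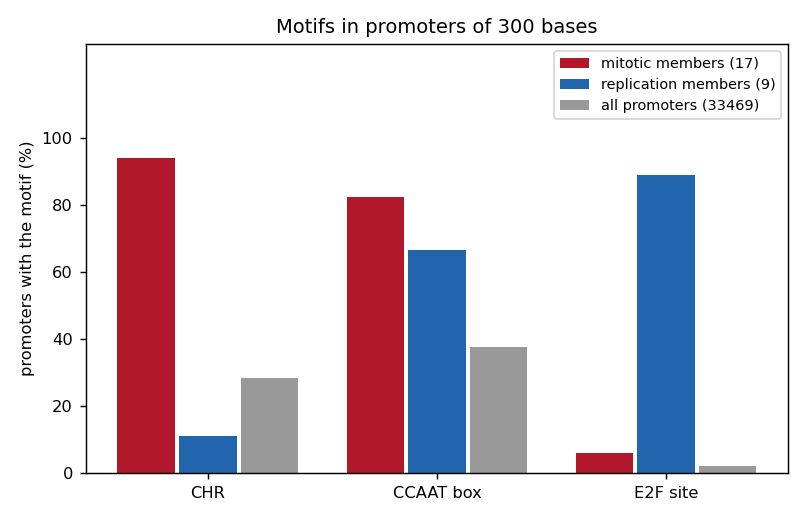
Share of promoters that hold each motif (vertical axis, %), for 17 mitotic members, 9 replication members and all 33469 promoters of the RefSeq table. CHR matches stand at 94.12% in mitotic members and 11.11% in replication members, and E2F matches at 5.88% and 88.89%.

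Of the mitotic members, the general proliferation marker Mki67 rose in all 3 of its probes. Mki67 encodes Ki-67, a protein that coats mitotic chromosomes and is present in cycling cells. Its probe with the highest signal lies at chr1:195310145-195310204 on build rn4, the build of the array annotation. It measured -3.14 and -3.12 in normoxia, then -3.22 and -3.21 on day 1, -1.96 and -2.01 on day 3, with -1.79 and -1.92 on day 7. The day 3 and day 7 arrays all lay above every normoxia and day 1 array. The log2 change was -0.09 ± 0.05 (SE from the limma fit, n = 2 arrays per group, as for all changes below) on day 1 (limma adjusted p = 0.27), 1.14 on day 3 (adjusted p = 0.00017) and 1.27 on day 7 (adjusted p = 5.7e-05), a 2.41-fold rise. The other 2 probes of Mki67 gave 1.38 and 0.92 on day 3 and 1.48 and 0.62 on day 7, and were called on both days.

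The cyclin-dependent kinase Cdk1, which drives entry into mitosis, and cyclin A2 (Ccna2), its partner in late S and G2 phase, also rose. Cdk1 (chr20:20043755-20043814, rn4) measured -3.25 and -3.31 in normoxia, then -3.11 and -3.04 on day 1, -2.49 and -2.48 on day 3, with -2.48 and -2.54 on day 7. Both day 3 and both day 7 arrays lay above all normoxia and day 1 arrays, with changes of 0.80 ± 0.05 (adjusted p = 0.00028) and 0.77 ± 0.05 (adjusted p = 0.00014). Its smaller rise on day 1 of 0.21 (adjusted p = 0.023) lost its call when any of the 2 normoxia or 2 day 1 arrays was left out, at 0.17 to 0.24.

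Ccna2 (chr2:123062781-123062840, rn4) measured -4.58 and -4.55 in normoxia, then -4.26 and -4.28 on day 1, -3.58 and -3.69 on day 3, with -3.30 and -3.08 on day 7. Each group lay above the one before, with no overlap between arrays. The change reached 0.93 ± 0.08 on day 3 (adjusted p = 0.00075) and 1.38 ± 0.08 on day 7 (adjusted p = 0.00013). The change of 0.30 on day 1 (adjusted p = 0.041) was not called under 11 of 20 alternatives. A second probe gave 0.07, 0.93 and 0.75 on the 3 days.

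B-type cyclins bind Cdk1 at the onset of mitosis and showed smaller differences. Ccnb1 (chr2:31574809-31575048, rn4) measured -4.63 and -4.60 in normoxia, then -4.52 and -4.42 on day 1, -4.46 and -4.27 on day 3, with -4.12 and -4.20 on day 7. Its change was 0.46 ± 0.08 on day 7 (adjusted p = 0.0041), with both arrays above all arrays of the other 3 groups. On day 3 it was 0.25 (adjusted p = 0.041), and leaving out any 1 array other than the first of day 3 ended that call, at values down to 0.16. Ccnb2 was not called on any day, at -0.24, -0.21 and 0.10, and was well above background on only 1 of 2 arrays on day 3 and again on day 7.

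Among the other mitotic kinases, Plk1 rose by 0.30 ± 0.04 on day 7 (adjusted p = 0.0024) after being lower by 0.31 on day 1 (change -0.31, adjusted p = 0.005). Plk1, polo-like kinase 1, acts in centrosome maturation and chromosome separation. Its day 3 difference of 0.14 lost its call when any of 6 arrays (normoxia, day 1 or day 3) was left out, at 0.13 to 0.16. Aurora kinases A and B, which act at spindle poles and at centromeres, and Ttk, a kinase of the spindle checkpoint, were not called on any day; on day 7 Aurka changed by 0.16, Aurkb by 0.14 and Ttk by 0.36.

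Nek2, a kinase that separates centrosomes, differed in direction from most mitotic members. It was well above background in normoxia and on day 1, and on neither array of day 3 or day 7. Its measured day 3 signal was 1.83-fold lower than in normoxia (limma adjusted p = 0.035), an estimate from dim signals and not a minimum. For day 7 a bound gave at least 1.59-fold lower (limma adjusted p = 0.037). The day 3 call was lost under 15 of 20 alternatives, the authors' deposited values among them, and the day 7 call under 16 of 20. Each was lost in 5 of 8 fits without 1 array, at -0.65 to -1.10 on day 3 and -0.49 to -1.14 on day 7. For a bound, the dim group was placed at its own signal or, if higher, at the lowest signal that the array called well above background. On both day 3 arrays the signal of Nek2 lay above that lowest signal, so the day 3 value is the measured fold. Under normexp background correction Nek2 turned to 0.25 and 0.41, and its second probe, also dim, gave 0.51 on day 3 and -0.25 on day 7, neither called.

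Of the genes of the spindle and of cell division, Kif11, Kif20a, Prc1, Nusap1 and Birc5 rose by day 7, whereas Tpx2 was not called. Kif11 encodes the motor that pushes spindle poles apart, Kif20a and Prc1 encode proteins of the central spindle, Nusap1 encodes a microtubule-bundling protein, and Birc5 encodes survivin of the chromosomal passenger complex. Kif11 (chr1:241722721-241722780, rn4) measured -4.88 and -4.91 in normoxia, then -4.59 and -4.65 on day 1, -4.56 and -4.63 on day 3, with -4.02 and -4.00 on day 7. Day 1 and day 3 overlapped with each other and lay above normoxia, and day 7 lay above both, at a change of 0.89 ± 0.04 (adjusted p = 8.1e-05). The rises on day 1 and day 3 were 0.28 (adjusted p = 0.0071) and 0.30 (adjusted p = 0.0035).

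Birc5 changed mainly between day 3 and day 7. It measured -4.03 on both arrays in normoxia, then -4.22 and -4.08 on day 1, -3.78 and -3.79 on day 3, with -2.35 and -2.42 on day 7. The day 7 arrays lay more than 1 log2 unit above every other array, at a change of 1.64 ± 0.06 against normoxia (adjusted p = 4.4e-05), a 3.12-fold rise, and of 1.40 against day 3 (adjusted p = 0.00034). The day 3 change of 0.24 (adjusted p = 0.019) lost its call without any of the 4 arrays compared, at 0.24 to 0.25, and fell to 0.07 once each array's trend with probe GC content was removed.

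Kif20a and Prc1 were lower on day 1 and higher afterwards. Kif20a (chr18:27108170-27108229, rn4) measured -4.79 and -4.65 in normoxia, then -5.21 and -5.17 on day 1, -4.16 and -4.25 on day 3, with -3.89 and -4.04 on day 7. Prc1 (chr1:136133173-136133232, rn4) measured -4.18 and -4.16, -4.60 and -4.52, -3.75 and -3.81, and -3.46 and -3.62 in the same order. In both genes the day 1 arrays lay below all others and the day 3 and day 7 arrays above normoxia. Changes on day 1 were -0.47 ± 0.08 for Kif20a (adjusted p = 0.0089) and -0.39 ± 0.07 for Prc1 (adjusted p = 0.0097). The call of Kif20a was lost without the first day 1 array (-0.40, adjusted p = 0.054), and that of Prc1 without the same array or without the second normoxia array (adjusted p up to 0.059, at -0.35 to -0.43). On day 7 the changes were 0.75 (adjusted p = 0.00069) and 0.63 (adjusted p = 0.00078).

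Nusap1 (chr3:106164775-106164834, rn4), read from 10 spots per array, measured -4.31 on both arrays in normoxia, then -4.33 and -4.37 on day 1, -3.96 on both arrays on day 3, with -3.77 on both on day 7. Normoxia and day 1 lay close together (-0.04, adjusted p = 0.35), with day 3 above both and day 7 above day 3. Nusap1 rose by 0.34 ± 0.03 on day 3 (adjusted p = 0.0009) and 0.53 on day 7 (adjusted p = 0.00013). Tpx2 activates Aurora A on the spindle. It was well above background in normoxia, on day 1 and on day 7 but on neither array of day 3. Its measured day 3 signal was 1.83-fold lower than in normoxia (limma adjusted p = 0.0049), an estimate from dim signals and not a minimum. With normexp correction that difference turned to 0.14. On day 7 Tpx2 stood at -0.20 ± 0.14 (adjusted p = 0.26).

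**Figure D3:**
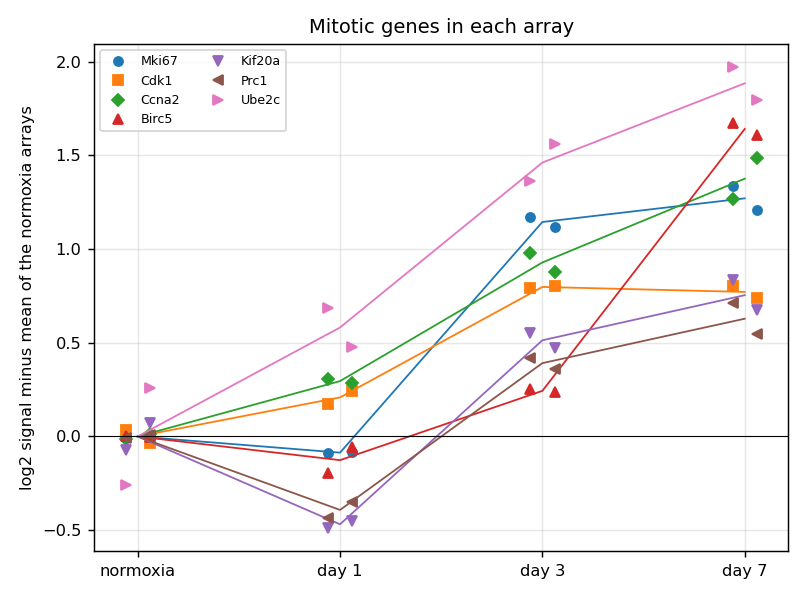
Log2 signal of 7 mitotic genes in each array minus the mean of the 2 normoxia arrays (vertical axis), by group (horizontal axis); each point is 1 array and lines join group means. Birc5 stands near 0.24 on day 3 and 1.64 on day 7, whereas Cdk1 is at 0.80 on day 3 and 0.77 on day 7.

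Top2a, the topoisomerase that untangles DNA in S phase and mitosis, rose on day 3 and day 7. It measured -4.89 and -4.88 in normoxia, then -4.52 and -4.61 on day 1, -4.49 and -4.19 on day 3, with -4.41 and -4.36 on day 7 (chr10:87771459-87771518, rn4). All exposed arrays lay above both normoxia arrays. The change was 0.32 ± 0.10 on day 1 (adjusted p = 0.061), 0.55 on day 3 (adjusted p = 0.0082) and 0.50 on day 7 (adjusted p = 0.0084). With the trend in probe GC removed the day 7 change was 0.30 and was no longer called.

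Regulators of chromosome separation were divided. Ube2c, the ubiquitin-conjugating enzyme of the anaphase-promoting complex, rose most of all members, by 1.46 ± 0.19 on day 3 (adjusted p = 0.0027) and 1.89 on day 7 (adjusted p = 0.00068). It measured -5.68 and -5.16 in normoxia, then -4.73 and -4.94 on day 1, -4.06 and -3.86 on day 3, with -3.45 and -3.62 on day 7, so that each group lay above the one before. Bub1, a kinase of the spindle checkpoint, rose by 0.44 ± 0.06 on day 3 (adjusted p = 0.0034) and 0.52 on day 7 (adjusted p = 0.0012).

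Cdc20 and Bub1b did not follow Ube2c. Cdc20, the activator of the anaphase-promoting complex, was lower on day 3 by a change of -0.24 ± 0.05 (adjusted p = 0.011), a call that was lost without the first day 3 array (-0.19) and under 5 of the other settings for scaling or background, at -0.04 to -0.15. On day 7 it stood at -0.12 (adjusted p = 0.087), and at 0.18 with arrays centred on their medians. Bub1b, the checkpoint protein BubR1, differed on day 1 by -0.80 ± 0.18 (adjusted p = 0.025), lost without any of the 4 arrays compared (-0.65 to -0.94) and at -0.19 in the authors' values; it was not called on day 3 or day 7, at -0.33 and 0.20, with 1 of 2 arrays well above background on day 3. Normexp correction turned the day 3 values of Bub1b and Ccnb2 to 0.36 and 0.46.

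Among replication genes the 6 subunits of the MCM2-7 helicase, which act in the cell as 1 ring that unwinds DNA, changed in both directions. Mcm3, Mcm4 and Mcm7 rose on day 3 and day 7, while Mcm6 and Mcm2 fell on both days and Mcm5 on day 7. Mcm4 (chr11:87183282-87183341, rn4) measured 0.50 on both arrays in normoxia, then 0.34 and 0.38 on day 1, 1.19 and 1.18 on day 3, with 1.48 and 1.54 on day 7. Mcm6 (chr13:41052148-41052207, rn4) measured -3.17 and -3.38 in normoxia, then -3.02 and -3.05 on day 1, -4.51 and -4.47 on day 3, with -4.58 and -4.98 on day 7. Day 3 and day 7 arrays lay entirely above the earlier arrays for Mcm4 and entirely below them for Mcm6. The change of Mcm4 was 0.69 ± 0.04 on day 3 (adjusted p = 0.00023) and 1.00 on day 7 (adjusted p = 4.7e-05), and that of Mcm6 was -1.22 ± 0.14 (adjusted p = 0.0019) and -1.51 (adjusted p = 0.00053), a 2.84-fold fall. On day 1 Mcm4 was called lower at -0.14 (adjusted p = 0.034), a call that held under 6 of 20 alternatives and under 2 of the 8 fits without 1 array. With normexp correction Mcm6 stood at -0.64 and -0.68, still called.

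Mcm7 (chr12:17607251-17607310, rn4) measured 0.88 and 0.84 in normoxia, then 1.15 and 1.17 on day 1, 1.17 and 1.25 on day 3, with 1.44 on both arrays on day 7. It was higher in every exposed array, by 0.30 ± 0.04 on day 1 (adjusted p = 0.0054), 0.35 on day 3 (adjusted p = 0.002) and 0.58 on day 7 (adjusted p = 0.00022). Mcm3 (chr9:19536947-19537006, rn4) measured -1.72 and -1.79 in normoxia, then -1.25 and -1.26 on day 1, -1.41 and -1.55 on day 3, with -1.44 and -1.46 on day 7. Its rise was largest on day 1, at 0.50 ± 0.06 (adjusted p = 0.0027), and was 0.28 on day 3 and 0.30 on day 7 (adjusted p = 0.011 and 0.0059). The day 3 call was lost without the second normoxia array (0.21). A second Mcm3 probe gave 0.27, 0.22 and 0.06, none called, and the mean of both probes was not called on any of the 3 days.

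Mcm2 (chr4:122978031-122978090, rn4) measured -2.61 on both arrays in normoxia, then -2.59 and -2.64 on day 1, -2.82 and -2.80 on day 3, with -2.79 and -2.89 on day 7. The day 3 and day 7 arrays lay below the others, at changes of -0.20 ± 0.05 (adjusted p = 0.018) and -0.23 (adjusted p = 0.0088). Both calls were lost under quantile normalization, median centring, cyclic loess, removal of the GC trend and normexp, and the day 7 change stood at 0.00 with quantile normalization and 0.06 with median centring. The day 3 call was also lost without any of the 4 arrays compared, at -0.20 to -0.21. A second, dimmer probe gave larger falls, -1.02 on day 3 and -1.18 on day 7, both called. Mcm5 (chr19:13998935-13998994, rn4) measured -4.79 and -5.36 in normoxia, then -4.46 and -4.36 on day 1, -5.57 and -5.62 on day 3, with -5.56 and -5.95 on day 7. Its change on day 7 was -0.68 ± 0.22 (adjusted p = 0.043). That call was lost under 15 of 21 alternatives, with values of -0.39 to -0.96 when single arrays were left out, and turned to 0.19 with normexp.

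The opposed MCM subunits also lay at different levels on the array. Deciles of mean level over the 8 arrays placed Mcm4 and Mcm7 in decile 8 and Mcm3 in decile 6, while Mcm2, Mcm6 and Mcm5 lay in deciles 5, 4 and 3. The median day 7 change of all genes ran from -0.65 in decile 1 to 0.36 in decile 10, with -0.23 in decile 3, -0.18 in decile 4 and 0.17 in decile 8. Mcm6 and Mcm4 moved further than the medians of their deciles. The part of this trend in the split was not tested beyond the cyclic loess setting, which removes a trend with level and left Mcm4, Mcm7 and Mcm6 called in the same directions on day 3 and day 7. Under the same setting Mcm2 (-0.05 on day 3 and -0.02 on day 7) and Mcm5 (-0.28 on day 7) lost their calls, so that of the 3 subunits called lower on day 7 only Mcm6 kept its call.

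**Figure D4:**
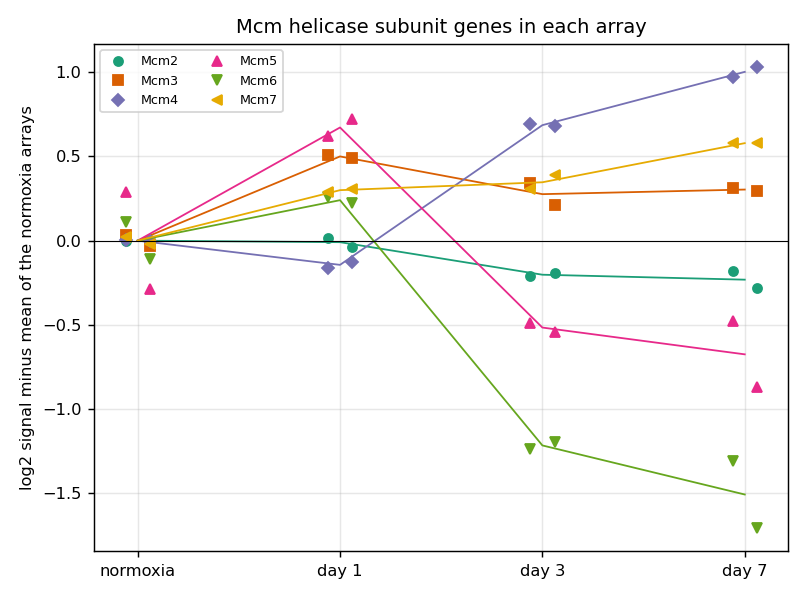
Log2 signal of the 6 MCM2-7 subunit genes in each array minus the mean of the 2 normoxia arrays (vertical axis), by group (horizontal axis); each point is 1 array and lines join group means. On day 7 Mcm4 stands at 1.00 and Mcm6 at -1.51, with Mcm7 at 0.58, Mcm3 at 0.30, Mcm2 at -0.23 and Mcm5 at -0.68.

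The enzymes of nucleotide supply went in opposite directions as well. Rrm2, the small subunit of ribonucleotide reductase, which makes deoxyribonucleotides, measured -0.86 and -0.92 in normoxia, then -0.68 and -0.70 on day 1, -0.34 and -0.35 on day 3, with -0.04 and -0.13 on day 7 (chr6:42359210-42359269, rn4). Each group lay above the one before. Rrm2 rose by 0.54 ± 0.05 on day 3 (adjusted p = 0.00065) and 0.81 on day 7 (adjusted p = 0.00011), and its day 1 change of 0.20 (adjusted p = 0.022) lost its call without any of the 4 arrays compared (0.17 to 0.23). A second Rrm2 probe gave 0.47 and 0.74 on days 1 and 3, both called, and 0.00 on day 7. Tyms, thymidylate synthase, measured -4.39 and -4.74 in normoxia, then -5.21 and -5.20 on day 1, -5.32 and -5.20 on day 3, with -5.75 and -5.37 on day 7 (chr9:112605733-112605792, rn4). Every exposed array lay below both normoxia arrays, at changes of -0.65 ± 0.17 (adjusted p = 0.036), -0.70 (adjusted p = 0.021) and -0.997 (adjusted p = 0.0044). With normexp correction the day 3 and day 7 values of Tyms were -0.09 and -0.04 and were not called, and with cyclic loess they were -0.36 and -0.59 and not called. Leaving out the first normoxia array ended the calls of day 1 (-0.47) and day 3 (-0.52). Leaving out either day 3 array also ended both, and leaving out either day 1 array ended that of day 1.

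Pcna, the sliding clamp of DNA polymerase, showed small differences. It measured 0.27 and 0.28 in normoxia, then 0.22 and 0.24 on day 1, 0.11 and -0.01 on day 3, with 0.27 and 0.13 on day 7 (chr3:120008997-120009056, rn4). Day 3 lay below normoxia at -0.23 ± 0.06 (adjusted p = 0.033), a call lost with median centring (-0.08) and when any of 5 single arrays was left out (-0.17 to -0.29), and 1 of the day 7 arrays stood at the level of normoxia. On day 7 the difference was -0.08 (adjusted p = 0.34), and 0.22 with median centring. The licensing factors Cdc6 and Cdt1, which load the helicase at origins, and geminin (Gmnn), the inhibitor of Cdt1, were not called on any day. Changes on day 7 were 0.36 ± 0.25 for Cdc6, 0.50 ± 0.47 for Cdt1 and -0.08 ± 0.07 for Gmnn, and Cdt1 was well above background on neither day 3 array.

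Cyclins of G1 changed in both directions, and members of a type differed from each other. The D-type cyclin Ccnd1, which couples growth signals to the cell cycle, measured -1.75 and -1.66 in normoxia, then -1.81 and -1.82 on day 1, -2.57 and -2.60 on day 3, with -2.73 and -2.80 on day 7 (chr1:205361630-205361689, rn4). Normoxia and day 1 lay above day 3 and day 7 with no overlap. Ccnd1 fell by 0.88 on day 3 (change -0.88 ± 0.05, adjusted p = 0.00023) and by 1.06 on day 7 (change -1.06, adjusted p = 6.8e-05), a 2.09-fold fall. Ccnd2, a D-type cyclin of neural progenitors, measured -0.30 and -0.35 in normoxia, then -0.57 and -0.58 on day 1, -0.27 and -0.24 on day 3, with -0.99 and -0.98 on day 7 (chr4:163535032-163541856, rn4). It was lower on day 1 (-0.25 ± 0.04, adjusted p = 0.0053) and day 7 (-0.66, adjusted p = 9.8e-05) and at 0.07 on day 3 (adjusted p = 0.16), so it did not move in 1 direction with time. The day 1 call of Ccnd2 was lost with normexp and with the GC trend removed.

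The E-type cyclins, which open S phase with Cdk2, differed from each other. Ccne1 (chr1:90568197-90568256, rn4) measured 0.85 and 0.74 in normoxia, then 0.61 and 0.62 on day 1, 1.23 and 1.15 on day 3, with 1.44 and 1.28 on day 7. Its day 3 and day 7 arrays lay above normoxia, at 0.39 ± 0.07 (adjusted p = 0.0087) and 0.56 (adjusted p = 0.0016), and with the GC trend removed these were 0.19 and 0.25 and not called. Ccne2 (chr5:25039349-25040889, rn4) measured -6.20 and -6.52 in normoxia, then -6.17 and -6.00 on day 1, -7.64 and -6.81 on day 3, with -7.92 and -7.91 on day 7, and on day 3 and day 7 neither array was well above background. It was at least 1.88-fold lower on day 7 than in normoxia (adjusted p = 0.0055), and its day 3 difference was not called (adjusted p = 0.052). With normexp these values turned to 0.30 and 0.28.

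E2f1, the transcription factor that activates replication genes, was raised on day 1 and day 3 only in its brighter probe. That probe (chr3:145032731-145032790, rn4) measured -1.31 and -1.23 in normoxia, then -0.90 and -0.95 on day 1, -0.91 and -0.96 on day 3, with -1.34 and -1.31 on day 7. Day 1 and day 3 lay above normoxia, at 0.35 ± 0.05 (adjusted p = 0.0042) and 0.33 (adjusted p = 0.0029), and day 7 stood at -0.06 (adjusted p = 0.34), or at 0.24 with median centring. The second probe gave 0.21, -0.32 and -0.89 on the 3 days, none called, and with the mean of both probes neither day 1 nor day 3 was called.

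In all, 11 members had more than 1 probe, with 50 probes for the 38 genes, of which 47 were kept. The 3 probes left out were the second probes of Bub1, Prc1 and Top2a, each well above background on at most 1 of 8 arrays. Mcm4 was called in both of its probes on day 7, at 1.00 and 0.49, and in 1 of them on day 3, at 0.69 against 0.21. On day 1, where its brighter probe was called lower at -0.14, its second probe stood at 0.08 and was not called. Kept probes of Mki67, Ccna2, Nek2, Mcm2, Mcm4, Rrm2 and E2f1, given above, differed by more than 0.5 log2 in at least 1 change against normoxia.

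Set against each other, mitotic genes gained on replication genes with exposure after day 1. The median change of mitotic members minus that of replication members was -0.30, 0.38 and 0.39 on days 1, 3 and 7. In single arrays, the mean level of the 21 mitotic members minus that of the 12 replication members was -1.78 and -1.66 in normoxia, then -1.92 and -1.88 on day 1, -1.44 and -1.33 on day 3, with -1.14 and -1.22 on day 7. Since probes differ in brightness, only its movement between arrays can be read. The groups did not overlap, and the pooled SD within groups was 0.06. The mean of the mitotic members alone went from -4.36 on both normoxia arrays to -3.80 and -3.84 on day 7, while that of the replication members stood at -2.58 and -2.70 in normoxia and at -2.66 and -2.62 on day 7. This contrast is a description, with no test.

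Mitotic members lay in deciles 1 to 6 of mean level, where the median change of all genes was below 0 on day 3 and day 7. Of 21 mitotic members, 16 lay above the median change of their decile on day 3 and 20 on day 7. For replication members the numbers were 6 of 12 on day 3 and 6 of 12 on day 7. The exception among mitotic members on day 7 was Nek2. Arrays centred on their medians moved the median change of all genes from -0.05 to 0.10 on day 3 and from -0.03 to 0.26 on day 7, and the calls of all genes from 5146 higher of 10719 to 7574 higher of 11360 on day 3. Under that scaling 13 mitotic members were called higher on day 3 and 17 on day 7, beside 35.6% and 47.5% of all genes.

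**Figure D5:**
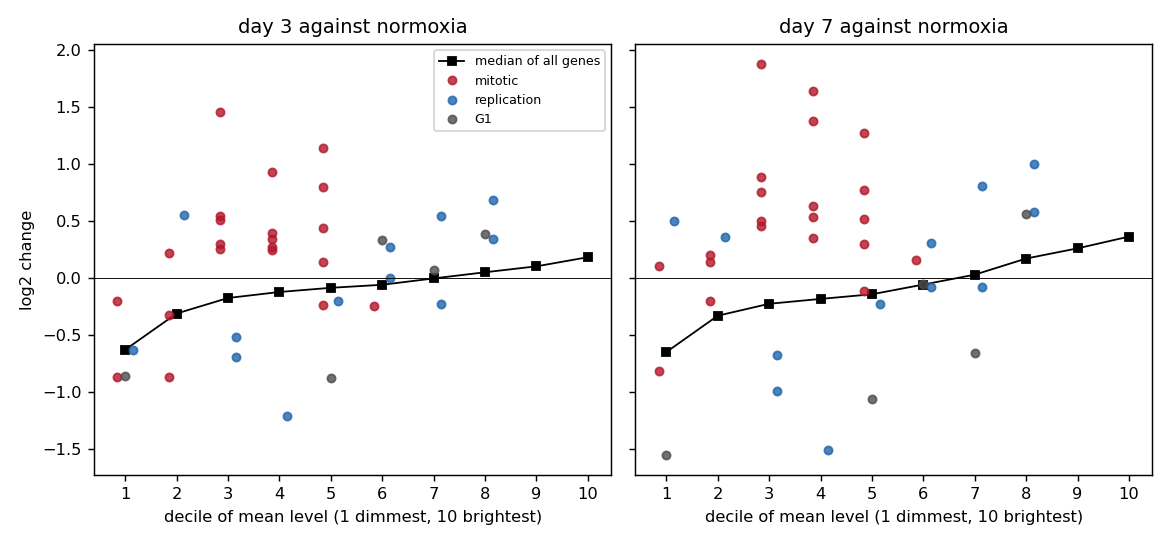
Log2 change on day 3 (left) and day 7 (right) against normoxia (vertical axis) by decile of mean level over the 8 arrays (horizontal axis); black squares join the medians of all genes and each coloured point is 1 member. The black line runs from -0.63 to 0.18 on day 3 and from -0.65 to 0.36 on day 7, and 20 of 21 mitotic members lie above it on day 7.

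Between consecutive groups, mitotic genes gained most from day 1 to day 3. Day 1 and day 3 lay in different rows of the slide, so row and exposure cannot be told apart in that step. From day 1 to day 3, 10 mitotic members were called higher and 2 lower, and 2 replication members higher and 4 lower, beside 28.2% and 23.0% of all genes. From day 3 to day 7, 7 mitotic members were called higher and 0 lower, and 3 replication members higher and 0 lower by limma, beside 24.2% and 18.3% of all genes; at an unadjusted p under 0.05, 0 mitotic and 0 replication members were lower. Birc5, Kif11 (0.58), Ccna2 (0.45) and Nusap1 (0.19) rose further from day 3 to day 7, whereas Mki67 (0.13), Cdk1 (-0.03) and Top2a (-0.05) were not called there. The second probe of Ccna2 stood at -0.18 there (adjusted p = 0.37), and the call of Ccna2 was lost with the mean of its probes and with the 2 groups fitted alone. That of Nusap1 was lost with the authors' deposited values, with the intensity trend in the prior and with the 2 groups alone. The measured signal of Tpx2, dim on day 3, was 1.59-fold higher on day 7 than on day 3 (limma adjusted p = 0.015). That call was lost without the second day 3 or the second day 7 array, with changes of 0.56 to 0.77 when single arrays were left out.

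Other genes of the same processes, listed from general knowledge but with earlier results of these data known, gave counts for comparison. Of 43 other mitotic genes tested, 19 were called higher and 6 lower on day 3 (44.2% and 14.0%). On day 7 the counts were 22 and 4 (51.2% and 9.30%), and the median changes were 0.21 and 0.33 on days 3 and 7. Of all genes, 24.2% were called higher and 26.2% lower on day 3, and 31.5% and 29.7% on day 7. Spc25, of the kinetochore, changed by -0.56 on day 1, 0.27 on day 3 and 0.96 on day 7, and Fam64a by -0.39, 0.83 and 1.33; both passed the test on all 3 days. Ect2, which directs the cleavage furrow, reached 0.84 on day 7, while Incenp, the scaffold of the Aurora B complex, fell by 0.67 on day 7 (change -0.67 ± 0.03, adjusted p = 9.1e-05).

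Of 49 other replication genes tested, 13 were called higher and 11 lower on day 3 (26.5% and 22.4%), near the shares of all genes. On day 7 the counts were 21 and 11 (42.9% and 22.4%), and the medians were -0.05 and 0.01 on days 3 and 7. Of all genes, 24.2% were called higher and 26.2% lower on day 3, and 31.5% and 29.7% on day 7. Single genes lay in both directions. Fen1, the nuclease that trims Okazaki fragments, rose by 0.82 on day 7 (limma adjusted p = 6.3e-05). Rpa1, the large subunit of the single-strand binding protein, fell by 1.40 on day 7 (change -1.40, adjusted p = 4.3e-05). Cdc7, the kinase that fires origins, was measured at -1.74 on day 7, where it was well above background on neither array, and Slbp, which binds histone mRNA, was at -0.67 on day 1 and -0.07 on day 7. Of 9 other G1 genes, 5 were called higher on both day 3 and day 7, and 1 and 2 lower, with Myc at 0.59 (adjusted p = 0.00014), E2f3 at 0.53, Skp2 at 0.50 and Mycn at 0.32 on day 7. Of 18 genes that restrain the cycle, 10 were called higher on day 3 and 10 on day 7, and 4 and 5 lower. Ccng1, a target of p53, rose by 1.70, 1.38 and 2.92 on days 1, 3 and 7 (adjusted p = 2.6e-05 on day 7); Cdkn1c, the inhibitor p57, was at -1.73, -0.47 and -1.26, all called; Ccng2 was at 0.63 on day 1 and 0.14 on day 7; and Gadd45g was at -0.71 on day 7.

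Markers of cells that can divide, or that carry blood, moved in several ways beside these genes, and their part in the results was not tested. Of all genes, 15.3% were called higher and 20.2% lower on day 1. The same shares were 24.2% and 26.2% on day 3, and 31.5% and 29.7% on day 7. Microglial markers called higher on day 7 (30.0%) and oligodendrocyte precursor markers called lower on day 7 (30.0%) lay near these shares. Of 12 neurogenesis markers tested, 6 were called higher and 5 lower on day 7. Dcx of immature neurons stood at 0.48 and Tubb3 at 0.55, and Calb2 at -1.07. The median day 7 change of the 12 was -0.03, with 6 positive and 6 negative. Their summed signal was up to 38.2 in normoxia, 32.6 on both day 1 arrays, 38.2 and 39.1 on day 3, and 47.8 and 48.8 on day 7. Of 10 oligodendrocyte precursor markers, 5 were called lower on day 1, 7 on day 3 and 3 on day 7, while 1 was called higher on day 3 and 2 on day 7. Their signals summed to 54.7 and 55.4 on the normoxia arrays, then 44.8 and 46.7 on day 1, 49.2 and 49.3 on day 3, with 51.9 and 52.8 on day 7. Of 13 endothelial markers, 8 were called higher and 2 lower on day 1, with 7 and 4 on day 3, then 7 and 5 on day 7. Tek, Tie1 and Eng stood at -2.07, -1.82 and -1.31 on day 7, unlike most of the list. The day 7 changes of the 13 markers had a median of 0.45 and reached 1.62, with 8 positive and 5 negative. Their summed signal was 14.4 on both normoxia arrays, 45.4 and 46.3 on day 1, 31.3 and 31.9 on day 3, with 25.7 and 26.0 on day 7. Of 10 microglial markers, 6 were called higher on day 1, 1 on day 3 and 3 on day 7, while 5 were called lower on day 3 and 6 on day 7. Erythroid markers rose in step with time: 9, 11 and 11 of 11 were called higher on the 3 days, and their summed signal went from 96.0 and 103 in normoxia to 172 and 179 on day 1, 283 and 291 on day 3, with 345 and 346 on day 7. Alas2, of haem synthesis in red cell precursors, was higher by 3.67 on day 7, and of the 11 tested markers 2 were below background in normoxia. Among 9 leukocyte markers tested, 4 were called higher and 1 lower on day 7, and the summed signal went from 0.68 on both normoxia arrays to 2.45 and 2.46. The median day 7 change of the 9 was -0.10, with 4 positive and 5 negative and the largest at 4.84. The sum therefore does not describe the typical leukocyte marker.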

How the data were processed

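The 38 members and the gene lists were chosen with earlier results of these data known. Groups were taken from the labels, with 2 arrays for each of 4 groups, all on 1 slide. Per the file headers, the deposited scanner output was written by Agilent Feature Extraction 11.5.1.1 and gives for each spot a processed signal intensity, from which background was subtracted within the array, beside the mean signal intensity and local background. The authors' deposited series values are in log2; their scaling is not stated. They matched the log2 processed signal after subtraction of its 75th percentile per array, within 0.05 for 96.7% to 97.4% of probes after 1 constant per array, with column medians of -3.23 to -3.53, and served as an alternative.

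Control spots and outlier spots were left out, log2 signals were averaged over the spots of a probe, and the 75th percentile of 30367 probes was subtracted per array. Of 30346 complete probes, 24678 were kept, being well above background in at least 1 group on both of its arrays. Each of the 21296 genes tested took the values of its brightest kept probe by mean level. Tests between groups used limma 3.58.1 under R 4.3.3 (functions lmFit and eBayes, all 8 arrays in 1 model with a mean per group, two-sided) in 5 comparisons, with Benjamini-Hochberg adjustment over all genes and calls at an adjusted p under 0.05. Residual degrees of freedom were 4 and those of the prior 1.22. The number of arrays limits the precision. The procedure was tested on simulated data.

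Values in each array were given for a list of 12 members (Mki67, Cdk1, Top2a, Ccnb1, Mcm2, Mcm6, Pcna, Rrm2, Ccnd1, Ccnd2, Ccne1 and E2f1), and for up to 6 further mitotic, 4 further replication and 2 further G1 members with the smallest p of the F-test; Ube2c and Tyms were added after their values were seen. Of each list of other genes up to 4 with the smallest such p were considered for naming. Probe coordinates and symbols come from the annotation of the array, on build rn4. The labels give no numbers that pair arrays across groups. Alternatives were 4 other normalizations, normexp (offset 50), the authors' values, 2 filters, averaging the probes of a gene, a prior with an intensity trend, fits of the 2 groups alone, the array number as a replicate block, a fold of at least 2, each array left out, and other memberships; fits without the day 1 arrays, and medians without the Mcm genes, were chosen after seeing the data. Software was the R package data.table (version 1.17.8), Python 3.11.15, pandas 2.3.3, numpy 2.4.6 and matplotlib 3.10.9.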

Additional observations from a re-analysis of the deposited data

How the results depend on the processing

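The number of mitotic members called higher than in normoxia was 13 on day 3 (11 to 16 over the alternatives, and 10 to 12 with single arrays left out) and 13 on day 7 (12 to 19, and 13 to 14), except that calls of at least 2-fold were 2 and 4. The highest counts, 16 and 19, came with normexp, which also called 35.7% and 48.2% of all genes higher, against 24.2% and 31.5%. The median difference of mitotic minus replication members kept its sign in every comparison and alternative run. On day 1 it was -0.16 with quantile normalization, -0.14 with normexp and -0.16 without the Mcm genes, and -0.30 to -0.23 with single arrays left out. On day 3 it was 0.54 with quantile normalization, 0.55 with cyclic loess, 0.26 with normexp and 0.27 with E2f1, Ccne1 and Ccne2 among the replication genes. On day 7 these settings gave 0.53, 0.63, 0.32 and 0.55, the filter on all 8 arrays gave 0.61, and leaving Mki67, Top2a and Ccna2 out gave 0.29; single arrays left out gave 0.35 to 0.58, the highest without the second day 7 array. From day 1 to day 3 it was 0.56 with the GC trend removed, 0.30 with normexp, 0.43 with the 3 genes moved and 0.36 without the Mcm genes, and 0.41 to 0.53 with arrays left out. From day 3 to day 7 it was 0.072 with normexp, 0.11 with the authors' values and 0.27 with the mean of probes, and 0.15 to 0.28 with arrays left out.

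Small counts moved most. On day 1, mitotic members called higher were 5 with quantile normalization, cyclic loess, the GC trend removed or the filter on all 8 arrays, and 1 to 3 with arrays left out (1 without the first normoxia array or either day 1 array); those called lower were 2 with normexp and 1 to 5 with arrays left out (1 without the first day 1 array, 2 without the second normoxia array). Replication members called lower on day 1 were 1 with quantile normalization, the GC trend removed, normexp, the mean of probes or the 2 groups alone, 0 with median centring, cyclic loess, no filter or the replicate block, and 0 to 2 with arrays left out (below 2 without any array of normoxia, day 1 or day 3). On day 3, mitotic members called lower were 1 with the 4 other normalizations or the filter on all 8 arrays, 0 with normexp, and 1 to 4 with arrays left out (1 without the first day 3 array); replication members called lower were 2 with quantile normalization, median centring or cyclic loess, 1 with normexp, and 1 to 4 with arrays left out (1 without the first normoxia or the second day 3 array, 2 without the first day 3 array). On day 7, the 1 mitotic member called lower, Nek2, was lost (0) under every alternative run except the unfiltered fit and 3 of the fits without 1 array (0 to 1); replication members called lower were 2 with quantile normalization or median centring and 1 with cyclic loess or normexp. From day 1 to day 3, mitotic members called higher were 18 with normexp; those called lower were 1 with quantile normalization, median centring, cyclic loess, no filter, the filter on all 8 arrays, the 2 groups alone or the replicate block, 0 with normexp and 1 to 2 with arrays left out. Replication members called higher there were 1 with the GC trend removed and 4 with normexp, and those called lower 2 with quantile normalization, median centring or normexp and 2 to 6 with arrays left out. From day 3 to day 7, mitotic members called higher were 12 with quantile normalization, 15 with median centring and 4 with the 2 groups alone; replication members called higher were 5 with median centring, and 1 with normexp or the 2 groups alone, and 1 was called lower with the mean of probes (0 to 1 with arrays left out, 1 without the first day 7 array). At 2-fold or more, 0 members of either kind were called on day 1; on day 3, 0 mitotic lower, 0 replication higher and 1 lower; on day 7, 0 mitotic lower, 1 replication higher and 1 lower; from day 1 to day 3, 1 mitotic higher, 1 lower, 0 replication higher and 2 lower; and from day 3 to day 7, 1 mitotic and 0 replication higher.

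Of 3884 values of single members, 19 turned sign where the main or the alternative value was called. Turns between values that were both not called were not counted. With normexp, day 3 values became 0.46 for Ccnb2, 0.36 for Bub1b, 0.14 for Tpx2, 0.25 for Nek2 and 0.28 for Ccne2; day 7 values became 0.41 for Tpx2, 0.41 for Nek2, 0.19 for Mcm5 and 0.30 for Ccne2; and day 3 against day 1 became 0.28 for Nek2, 0.22 for Tyms and 0.11 for Ccne2. On day 7, median centring gave 0.18 for Cdc20, 0.063 for Mcm2, 0.22 for Pcna and 0.24 for E2f1, and quantile normalization gave 0.0027 for Mcm2. Kif11 stood at -0.18 from day 1 to day 3 with the GC trend removed, and Rrm2 at -0.24 from day 3 to day 7 with the mean of its probes. The cause was not tested. Of the 67 calls against normoxia, 35 were kept under every alternative run at the adjusted p alone. The array number as a replicate block gave 12 mitotic members called higher on day 3 and 13 on day 7; no paired analysis was planned as the main fit, because the labels give no shared numbers. Dim members near background are limited by signal over background, and 2 arrays per group limit all values.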
